A study of Mus musculus with 6 samples.

Results

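Expression of 9 genes of the Hippo pathway was examined in mouse embryonic stem cells (mESCs) grown with or without a cytokine of the IL-6 family. The genes were Yap1, Wwtr1, Tead1, Tead2, Tead3, Tead4, Lats2, Ankrd1 and Amotl2. Their rows were picked by symbol from the 28584 gene symbols of the deposited table. All 9 were found and all 9 passed the filter on low values. The mESCs came from C57BL/6X129S6 blastocysts and had spent 5 passages on mitomycin C-inactivated mouse embryonic fibroblast (MEF) feeders. They were then moved to basic medium with 20% fetal bovine serum, in which the labels set the groups apart by cytokine alone. LIF-ESCs received 1000 U/mL leukemia inhibitory factor (LIF), OSM-ESCs received oncostatin M (OSM) but no LIF, and the control without cytokine is called -LIF-ESCs. RNA was taken after 10 passages in these media (P10) from 2 biological replicates per group, which made 6 libraries. The labels do not say whether feeders remained at P10, and 1 protocol field of the labels speaks of ovaries, although the cell type is given as embryonic stem cells.

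In the Hippo pathway, the kinases Lats1 and Lats2 phosphorylate the coactivators YAP (gene Yap1) and TAZ (gene Wwtr1), which keeps them out of the nucleus. Nuclear YAP and TAZ bind DNA through the TEAD transcription factors and switch on genes such as Ctgf, Cyr61, Ankrd1 and Amotl2. Several targets, among them Lats2 and Amotl2, act back on YAP and TAZ as inhibitors. In the early mouse embryo, YAP and TEAD4 are known for their part in the trophectoderm, where they drive Cdx2, and in mESCs the pathway is known for its links to self-renewal and differentiation. Levels of mRNA carry no measure of phosphorylation or of the place of a protein in the cell.

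Values are in TPM, a transcript abundance that is divided by gene length and scaled to the same total in each library. Depth, recovered from the step size of the TPM values, ran from 20720423 to 29009180 reads per library. The 7 members whose values gave whole reads had 281 to 9093 reads per library, so counting error alone ran from 5.97% to 1.05% of the value. Log2 fold changes are on the log2(TPM + 1) scale, with folds as ratios of TPM + 1, were fitted with limma over 18556 genes and carry Benjamini-Hochberg adjusted p-values. A gene was called when its adjusted p was under 0.05 and its log2 fold change at least 1 in either direction. Against the control, the log2 fold changes of all genes had a median of 0.165 with LIF and 0.182 with OSM. Rescaling each library by the median ratio brought these medians to -0.0009 and 0.0007. For the members and the other Hippo genes named, rescaled values are given where a direction or the side of an adjusted p of 0.05 turns on them. Changes across the fold limit are given with each gene or with the alternatives. With 2 libraries per group the smallest two-sided p of an exact permutation test is 0.333, and all p-values therefore rest on the model. Both comparisons with -LIF-ESCs use the same 2 control libraries and are therefore not independent of each other.

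Embryonic stem cell markers, 13 of 13 detected, summed to 2261 and 2287 TPM without cytokine, 4133 and 4276 TPM with LIF and 3857 and 3910 TPM with OSM. With either cytokine 10 of them were higher and 2 lower, namely Nanog, from 433 ± 3.60 to 290 ± 0.838 and 261 ± 13.2 TPM, and Dppa3, from 104 ± 5.43 to 38.7 ± 2.97 and 41.6 ± 3.44 TPM (SD, n = 2), the latter gene named after its values were seen. Markers of other cells differed as well. The 9 trophectoderm markers in the table summed to 1838 and 1839 TPM without cytokine. In the other 4 libraries the sum lay between 58.6 and 74.7 TPM, and 8 of the 9 were lower with either cytokine. Krt8 (982 ± 16.8 TPM) and Krt18 (765 ± 14.6 TPM), the latter named after its values were seen, supplied most of the sum without cytokine. Cdx2 and Gata3 read 4.12 ± 0.644 and 4.56 ± 0.389 TPM there. Of 9 primed epiblast and mesendoderm markers, 9 were lower with LIF and 8 with OSM. Fibroblast markers summed to 509 and 521 TPM without cytokine, 883 and 899 TPM with LIF and 1165 and 1195 TPM with OSM, and none of their 10 defining markers was at 0. Lum, the lowest of these in the cytokine groups, read 2.26 to 5.50 TPM there, while Prrx1 and Dcn were the lowest without cytokine, at 0.0399 and 0.0368 TPM. Sparc, named after its values were seen, supplied most of the fibroblast sum without cytokine (316 ± 2.55 TPM) and was lower with either cytokine. Of 23 fibroblast markers tested, 20 were higher and 3 lower with either cytokine. Prrx1 rose from 0.0976 ± 0.0817 TPM to 16.3 ± 0.647 TPM with LIF and 21.55 ± 0.0359 TPM with OSM. In bulk RNA, fewer cells of a type and less RNA per cell cannot be told apart, and the part of these cells in the results was not tested.

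Of the 9 members, 8 passed an adjusted p of 0.05 in LIF-ESCs against -LIF-ESCs, 5 of them higher and 3 lower. Over all genes tested the same threshold was passed by 68.1%, with 42.2% higher and 25.9% lower, so a count of this kind is common in these data and says little about the members. None of the 9 was called at the fold limit, against 21.4% of all genes. The median size of the log2 fold change, regardless of sign, was 0.743 for the members and 0.522 for all genes. In OSM-ESCs against -LIF-ESCs, 8 members passed the adjusted p, 6 higher and 2 lower, against 68.3% of all genes, 42.9% higher and 25.4% lower. Tead1 and Lats2 were called there, both higher, against 22% of all genes called and 14.2% called higher. The members' median size was 0.371, below the 0.522 of all genes. With LIF, both libraries of a group lay above both controls for 5 members and below them for 4, and over all genes this held for 50.9% and 33.4%. With OSM the counts were 6 and 3, against 51.5% and 32.4% of all genes.

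**Figure D1:**
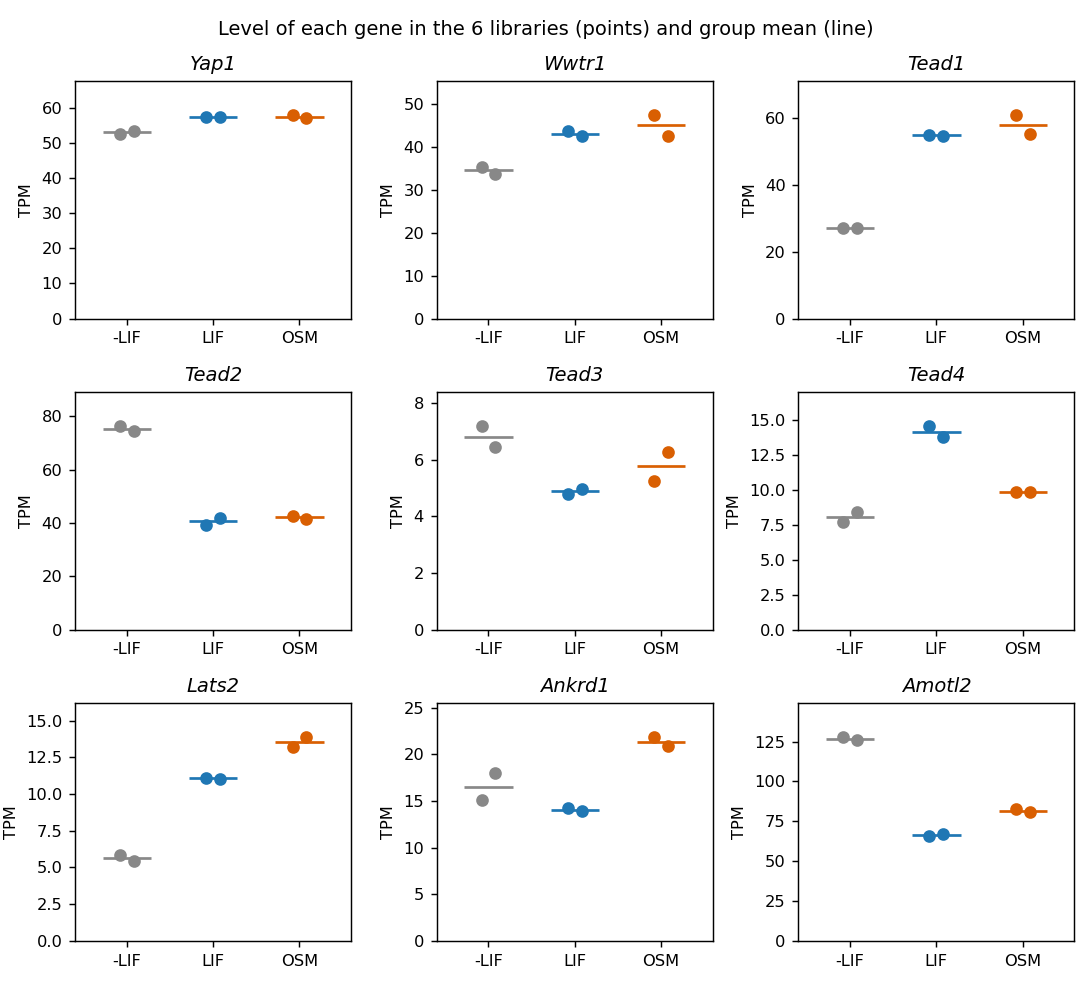
TPM of the 9 genes in each library, 1 panel per gene with its own linear axis from 0, points for libraries and bars for group means (n = 2 per group). Tead1 and Lats2 stand higher with either cytokine than without, Tead2 and Amotl2 stand lower, and Yap1 stays between 52.6 and 57.9 TPM.

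The coactivator genes moved little. Yap1 read 52.6 and 53.5 TPM without cytokine, 57.4 and 57.3 TPM with LIF and 57.9 and 57.0 TPM with OSM. Both cytokine groups lay above both control libraries, by 1.08-fold in each case (log2 0.11, SE 0.04, adjusted p = 0.0343 with LIF and 0.0321 with OSM). This rise is smaller than the median shift of all genes, and rescaling turned its direction (log2 -0.08, adjusted p = 0.0743 with LIF and -0.09, adjusted p = 0.0548 with OSM). Leaving out any 1 library of either comparison put the adjusted p above 0.05, between 0.0554 and 0.123.

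Wwtr1, which encodes TAZ, read 35.4 and 33.7 TPM without cytokine, 43.7 and 42.5 TPM with LIF and 47.5 and 42.6 TPM with OSM. All 4 cytokine libraries lay above the controls. The log2 fold change was 0.31 (SE 0.06, adjusted p = 0.0076) with LIF and 0.37 (SE 0.06, adjusted p = 0.0038) with OSM. After rescaling it was 0.12 (adjusted p = 0.103) and 0.17 (adjusted p = 0.0375). Within a library, which no scaling affects, the ratio of Yap1 to Wwtr1 was 1.54 ± 0.0733 without cytokine, 1.33 ± 0.0240 with LIF and 1.28 ± 0.0822 with OSM (SD, n = 2).

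The TEAD factors, which supply the DNA-binding part of the complex, changed in opposite directions. Tead1 read 26.9 TPM in both -LIF-ESC libraries, 54.9 and 54.6 TPM with LIF and 60.8 and 55.0 TPM with OSM. It was 2.00-fold higher with LIF (log2 1.00, SE 0.06, adjusted p = 6.19e-05) and 2.11-fold higher with OSM (log2 1.08, SE 0.06, adjusted p = 4.76e-05). Its unrounded log2 value with LIF, 0.998, falls just short of the fold limit, so being called with OSM and not with LIF shows no difference between the cytokines. After rescaling Tead1 stood at 0.81 with LIF and 0.87 with OSM, both past an adjusted p of 0.05 but short of the fold limit. Tead2 went the other way, from 76.3 and 74.4 TPM without cytokine to 39.4 and 42.0 TPM with LIF and 42.7 and 41.5 TPM with OSM. Its log2 fold change was -0.87 (SE 0.05, adjusted p = 5.54e-05) with LIF and -0.82 (SE 0.05, adjusted p = 6.52e-05) with OSM, and after rescaling it was past the fold limit at -1.07 and -1.03. For neither gene did the libraries of a cytokine group come near the controls.

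Tead3, the least abundant of the family, read 7.19 and 6.45 TPM without cytokine, 4.80 and 4.97 TPM with LIF and 5.27 and 6.28 TPM with OSM. It was lower with LIF (log2 -0.41, SE 0.10, adjusted p = 0.0172), which did not pass the test without either LIF-ESC library or without -LIF-ESC library 1 (adjusted p = 0.0575 to 0.0901). With OSM the value was -0.21 (adjusted p = 0.129), and -0.39 (adjusted p = 0.0261) after rescaling. Tead4, the family member known for the trophectoderm, read 7.73 and 8.39 TPM without cytokine, 14.5 and 13.8 TPM with LIF and 9.85 TPM in both OSM-ESC libraries. It was 1.67-fold higher with LIF (log2 0.74, SE 0.07, adjusted p = 0.000341). With OSM it was 1.20-fold higher (log2 0.26, SE 0.07, adjusted p = 0.0178), but only 0.07 on the log2 scale after rescaling (adjusted p = 0.371). It also did not pass the test without either OSM-ESC library or without -LIF-ESC library 1 (adjusted p = 0.0635 to 0.0813). Tead4 was highest with LIF, where the trophectoderm markers had their lowest sum and Cdx2 read 0.236 and 0.0490 TPM. Between the cytokines 9 of the 9 markers did not pass an adjusted p of 0.05, and a relation to Tead4 was not tested.

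The summed TPM of the 4 TEAD genes lay close together in the groups, at 117 ± 1.44 without cytokine, 114 ± 1.20 with LIF and 116 ± 4.14 with OSM (SD, n = 2). What differed was the make-up of that sum. Tead1 supplied 23.0% ± 0.260 of it without cytokine, 47.8% ± 0.721 with LIF and 50.05% ± 1.72 with OSM. Tead2 supplied 64.3% ± 0.368, 35.5% ± 1.27 and 36.4% ± 0.611 in the same order, so the leading TEAD transcript was Tead2 without cytokine and Tead1 with either. The share of Tead4 was 6.89% ± 0.483, 12.4% ± 0.608 and 8.53% ± 0.308, and that of Tead3 lay between 4.22% and 6.09% in every library. The ratio of Tead1 to Tead2 within a library rose from 0.353 and 0.362 without cytokine to 1.40 and 1.30 with LIF and 1.42 and 1.33 with OSM. These ratios are independent of library scaling, and the cytokine groups overlapped each other but not the control. Since 3 groups of 2 libraries allow no small exact p, the shares are given as a description.

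**Figure D2:**
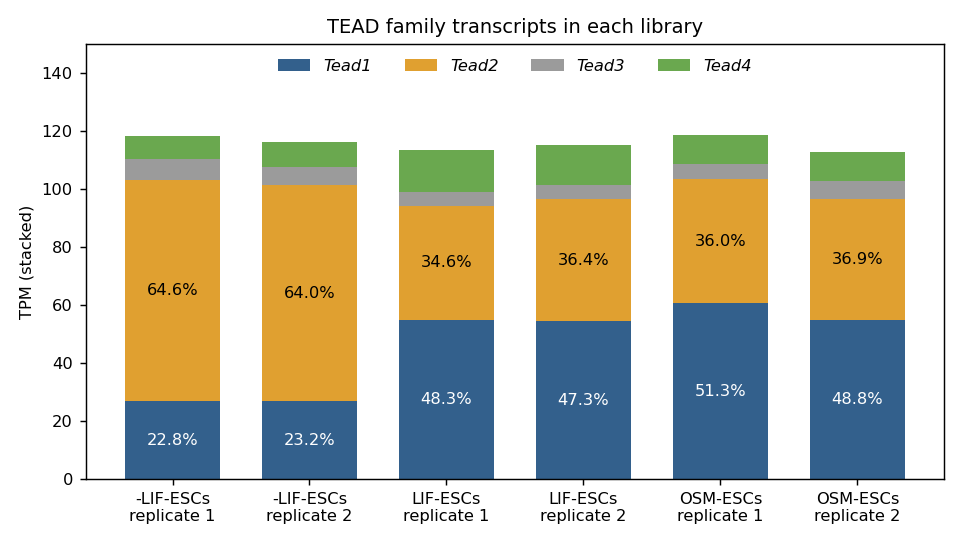
TPM of Tead1 to Tead4 as 1 stacked bar per library, with the share of the summed TPM written in percent on the larger segments. The Tead1 segment takes 22.8% and 23.2% without cytokine and 47.3% to 51.3% in the other 4 libraries, while the Tead2 segment takes 64.0% to 64.6% and then 34.6% to 36.9%.

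Lats2, the kinase that restrains YAP and TAZ and is itself one of their targets, read 5.85 and 5.41 TPM without cytokine, 11.1 TPM in both LIF-ESC libraries and 13.2 and 13.9 TPM with OSM. It was 1.82-fold higher with LIF (log2 0.86, SE 0.07, adjusted p = 0.000187) and 2.19-fold higher with OSM (log2 1.13, SE 0.07, adjusted p = 7.16e-05). The 3 groups did not overlap. After rescaling the log2 fold changes were 0.69 and 0.95, both still past an adjusted p of 0.05, while the OSM value then fell short of the fold limit.

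The other kinases, adaptors and upstream regulators of the pathway did not share a direction. Of 25 listed genes 24 were tested. With LIF 10 were higher, 8 lower and 6 not past the test, and with OSM the counts were 11, 7 and 6. Their median log2 fold changes, 0.172 and 0.139, lay close to the 0.165 and 0.182 of all genes. Over all genes tested 42.2% were higher and 25.9% lower with LIF, and 42.9% and 25.4% with OSM, at the same threshold. Lats1, the sister kinase of Lats2, rose from 9.45 ± 0.0094 TPM to 15.2 ± 1.12 TPM with LIF and 15.6 ± 0.438 TPM with OSM (log2 0.63 and 0.67, adjusted p = 0.000668 and 0.000536). Rassf1, a scaffold that binds the upstream MST kinases, rose from 6.31 ± 0.227 TPM to 19.4 ± 0.502 and 22.9 ± 0.244 TPM (log2 1.48 and 1.71). Taok3, of a kinase family that activates the MST kinases, rose from 3.96 ± 0.559 TPM to 10.6 ± 0.384 and 10.2 ± 0.794 TPM (log2 1.24 and 1.18).

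Other genes of the list fell. Amot, an angiomotin that binds YAP, fell from 19.6 and 18.7 TPM without cytokine to 4.45 and 4.78 TPM with LIF and 3.69 and 4.15 TPM with OSM (log2 -1.84 and -2.04, adjusted p = 3.10e-05 and 2.20e-05). Ptpn14, a phosphatase that binds YAP, fell from 35.0 ± 0.119 TPM to 14.8 ± 0.800 and 19.4 ± 0.500 TPM (log2 -1.19 and -0.82). Wtip, a LIM protein of the Ajuba family that inhibits the LATS kinases, fell from 49.9 ± 1.04 TPM to 25.3 ± 0.120 and 28.2 ± 1.89 TPM (log2 -0.96 and -0.81). Nf2, the upstream regulator also called Merlin, read 43.3 ± 0.373, 51.2 ± 2.36 and 46.1 ± 0.694 TPM without cytokine, with LIF and with OSM. Its log2 fold change was 0.24 (adjusted p = 0.00628) with LIF, but 0.04 (adjusted p = 0.409) after rescaling, and 0.09 (adjusted p = 0.144) with OSM, which rescaling turned to -0.12.

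The Vgll proteins bind TEAD factors in place of YAP and TAZ. Of the 4 genes, Vgll3 and Vgll4 were tested, while Vgll1 and Vgll2 stayed below 1 TPM. Vgll4, a repressor of TEAD targets, fell from 10.2 ± 0.855 TPM to 5.24 ± 0.0597 TPM with LIF (log2 -0.85, adjusted p = 0.000572) and 6.57 ± 0.469 TPM with OSM (log2 -0.57, adjusted p = 0.0026). Vgll3 read 8.54 ± 0.496 TPM without cytokine and 13.1 ± 0.559 TPM with OSM (log2 0.56, adjusted p = 0.00146). With LIF it read 9.48 ± 0.512 TPM (log2 0.14, adjusted p = 0.164, and -0.04 after rescaling).

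Ankrd1, a cardiac ankyrin repeat protein and a common readout of YAP activity, read 15.1 and 18.0 TPM without cytokine, 14.2 and 13.9 TPM with LIF and 21.8 and 20.9 TPM with OSM. The groups did not overlap, and LIF-ESCs were lowest and OSM-ESCs highest. With LIF the log2 fold change was -0.21 (SE 0.09, adjusted p = 0.0801), and it passed the test after rescaling (-0.40, adjusted p = 0.00997) or without -LIF-ESC library 1 (-0.33, adjusted p = 0.0154). With OSM it was 0.36 (SE 0.09, adjusted p = 0.0157), which did not pass after rescaling (0.16, adjusted p = 0.16) or without either OSM-ESC library (adjusted p = 0.0512 and 0.0788).

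Amotl2, an angiomotin that sequesters YAP at junctions, was the most abundant member in all 6 libraries. It read 128 and 126 TPM without cytokine, 65.7 and 66.9 TPM with LIF and 82.4 and 80.8 TPM with OSM, with no overlap among the groups. It fell to 0.527 of the control with LIF (log2 -0.92, SE 0.03, adjusted p = 1.79e-05) and to 0.647 with OSM (log2 -0.63, SE 0.03, adjusted p = 5.19e-05). After rescaling the values were -1.12, past the fold limit, and -0.84. Of the 3 members that are standard targets, Lats2 therefore rose and Amotl2 fell under either cytokine, while Ankrd1 rose with OSM and did not pass the test with LIF.

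TEAD factors bind the letters CATTCC, which read GGAATG on the other strand. RefSeq windows (GRCm38.p6) from 250 bases before to 50 bases after a start site were searched for them on both strands. Windows were at hand for 7 members, 11 in all, some of which overlap. Of the 7 members 6, namely Yap1, Wwtr1, Tead3, Lats2, Ankrd1 and Amotl2, held the motif in at least 1 window. Among 27025 genes with a window, 16.6% held it. By window, the motif was in 8 of the 11 and in 14.7% of all. The 30-base stretches around each upstream match are printed 5′ to 3′ on the strand of the gene, with the motif in capitals, because they show where the motif lies at the genes described here, and Cyr61, a classical target, is given beside them.
Ankrd1 (chr19:36120037-36120066, - strand): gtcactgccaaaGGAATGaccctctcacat
Ankrd1 (chr19:36119950-36119979, - strand): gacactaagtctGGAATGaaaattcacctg
Amotl2 (chr9:102717727-102717756, + strand): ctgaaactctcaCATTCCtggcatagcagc
Cyr61 (chr3:145650071-145650100, - strand): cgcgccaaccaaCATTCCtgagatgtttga
Yap1 (chr9:8004720-8004749, - strand): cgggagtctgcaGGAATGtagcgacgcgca
Wwtr1 (chr3:57576029-57576058, - strand): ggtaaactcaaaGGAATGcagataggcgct
Tead3 (chr17:28350970-28350999, - strand): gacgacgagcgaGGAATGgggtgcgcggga
Tead3 (chr17:28350706-28350735, - strand): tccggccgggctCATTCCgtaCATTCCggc

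Ankrd1 held 2 matches in 1 window, starting 210 and 123 bases before its RefSeq start site, while 1.36% of 32851 windows held 2 or more. In 1 window Tead3 held 3 matches, 123 and 114 bases before and 3 bases after the start site, the last not printed. Of all windows 0.131% held 3 or more. The match of Amotl2 started 65 bases and that of Cyr61 103 bases before the start site. In GENCODE M21 some transcripts of Ankrd1 and Amotl2 begin further upstream, so both stretches of Ankrd1 and that of Amotl2 lie in a first exon there. The second stretch of Tead3, upstream of 1 RefSeq start site, likewise lies downstream of another start site of the gene and in an exon of GENCODE M21. The match of Lats2 lay 5 bases after the start site and is not printed. Tead2 had no match. Genes with a match rose (Lats2), fell (Amotl2) or moved by less than the median shift of all genes (Yap1). The letters TTCNNNGAA, which the STAT factors downstream of LIF and OSM bind, were found in 0 of the 7 members. Of all genes with a window 9.55% held these letters, and of all windows 8.3%. A match or its absence is a description of these letters alone.

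Among 18 further target genes of YAP, TAZ and TEAD, all were tested. With LIF 10 were higher, 6 lower and 2 not past the test, against 42.2% of all genes higher and 25.9% lower. The median log2 fold change of the list was 0.740 against 0.165 for all genes. With OSM 12 of the list were higher and 6 lower, against 42.9% and 25.4% of all genes. The median of the list was then 1.04 against 0.182. Axl, a receptor tyrosine kinase, showed the largest rise, from 10.3 and 10.7 TPM without cytokine to 57.7 and 61.8 TPM with LIF and 81.5 and 77.8 TPM with OSM (log2 2.40 and 2.81). Gadd45a, a growth arrest and DNA damage gene, rose from 47.8 ± 1.63 TPM to 210 ± 3.28 and 210 ± 12.6 TPM (log2 2.11 with either cytokine). Crim1, a transmembrane regulator of BMP, rose from 7.39 ± 0.655 TPM to 19.3 ± 0.132 and 23.6 ± 1.70 TPM (log2 1.28 and 1.56).

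Other targets fell. Igfbp3, which binds insulin-like growth factors, read 295 and 302 TPM without cytokine, 18.8 and 17.2 TPM with LIF and 20.7 and 19.5 TPM with OSM (log2 -3.98 and -3.83, adjusted p = 2.05e-06 and 2.12e-06). Tgfb2, a ligand of the TGF-β family, read 24.6 ± 0.813 TPM without cytokine, 1.44 ± 0.292 TPM with LIF and 2.14 ± 0.716 TPM with OSM (log2 -3.39 and -3.04). Nuak2, a kinase related to AMPK, fell from 15.5 ± 0.253 TPM to 5.39 ± 0.581 and 4.69 ± 0.183 TPM (log2 -1.37 and -1.54). The target list therefore had no single direction, and neither had all genes tested.

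The canonical pair of targets also separated. Ctgf, a secreted matricellular protein, rose from 93.0 and 91.6 TPM without cytokine to 197 and 195 TPM with LIF and 268 and 260 TPM with OSM (log2 1.08 and 1.51, adjusted p = 1.00e-05 and 4.20e-06). Cyr61, of the same family, fell from 272 and 268 TPM to 185 and 188 TPM with LIF (log2 -0.53, adjusted p = 9.68e-05) and 244 and 234 TPM with OSM (log2 -0.17, adjusted p = 0.00622). The ratio of Ctgf to Cyr61 within a library was 0.342 and 0.341 without cytokine, 1.07 and 1.04 with LIF and 1.10 and 1.11 with OSM, and this ratio does not depend on scaling. Among fibroblast markers, 20 of 23 tested were higher and 3 lower with either cytokine, with median log2 fold changes of 2.00 and 2.46. Fibroblasts also express Ctgf, Cyr61 and Axl, and the part of such cells in these values was not tested.

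**Figure D3:**
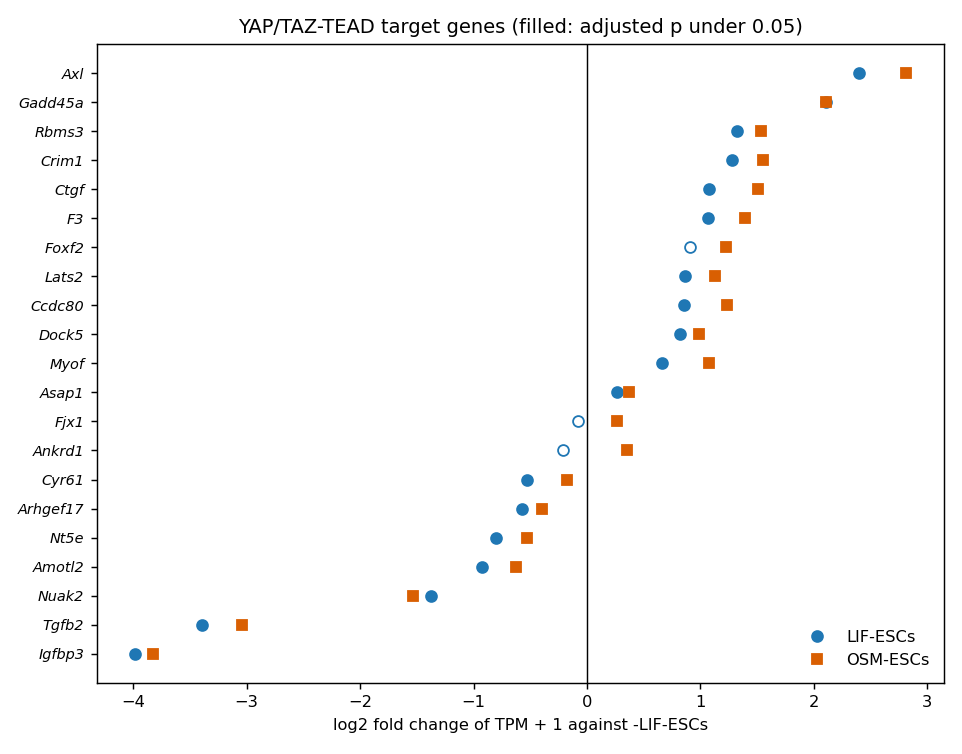
Log2 fold change of TPM + 1 against -LIF-ESCs for the 18 listed target genes together with Lats2, Ankrd1 and Amotl2, circles for LIF-ESCs and squares for OSM-ESCs, filled where the adjusted p was under 0.05. The values run from -3.98 for Igfbp3 to 2.81 for Axl, and for Gadd45a the square covers the circle.

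The direct comparison of OSM-ESCs with LIF-ESCs asks whether the cytokines differ. Amotl2 was the single member past an adjusted p of 0.05, against 0.593% of all genes and 0.463% that were higher, and none was called, against 0.0808%. At an unadjusted p under 0.05 there were 4 members, Tead4, Lats2, Ankrd1 and Amotl2, against 15.3% of all genes. Libraries of the cytokine groups did not overlap for 6 members, 5 higher with OSM and 1 lower, and over all genes tested this held for 26.3% and 20.9%. The median size of the log2 fold change was 0.200 for the members and 0.100 for all genes.

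Amotl2 stood 1.23-fold above its LIF level with OSM (log2 0.29, 95% interval 0.21 to 0.38, adjusted p = 0.0463). This lies at the edge of the threshold, and it did not pass without any 1 of the 4 cytokine libraries (adjusted p = 0.171 to 0.266). Ankrd1 showed a larger difference, 1.49-fold (log2 0.57, 95% interval 0.35 to 0.80), with an adjusted p of 0.0749. Lats2 was 1.20-fold higher (log2 0.27, 95% interval 0.10 to 0.44, adjusted p = 0.173). Tead4 was the member that stood lower with OSM, at 0.716 of its level with LIF (log2 -0.48, 95% interval -0.65 to -0.31, adjusted p = 0.0629). With limma's voom on recovered reads these 4 members had adjusted p-values of 6.18e-06, 8.94e-05, 0.0087 and 0.000457 in the order given, that of Ankrd1 from estimated reads. That fit put far more genes past 0.05, 973 higher and 476 lower against 86 and 24 in the main fit. With only these 2 groups fitted by limma, none of the 4 passed (adjusted p = 0.121, 0.106, 0.217 and 0.131). Without the trend none passed either (adjusted p = 0.124, 0.125, 0.181 and 0.0882). With a filter of 5 TPM, Amotl2 and Tead4 passed (adjusted p = 0.0343 and 0.0463).

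For the other members the interval of the difference was narrow. The ratio of OSM-ESCs to LIF-ESCs lay between 0.942 and 1.07 for Yap1, 0.933 and 1.17 for Wwtr1, 0.957 and 1.16 for Tead1 and 0.952 and 1.12 for Tead2 (95% intervals). For Tead3 the interval was wider, from 0.956 to 1.38. These intervals leave room for small differences that 2 libraries per group could not resolve.

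Of the 18 listed targets, Ctgf and Cyr61 passed the test in this comparison, both higher with OSM, with log2 fold changes of 0.42 (adjusted p = 0.026) and 0.36 (adjusted p = 0.0349). Neither passed without any 1 of the 4 cytokine libraries (adjusted p = 0.171 to 0.250) or without the trend or with only these 2 groups fitted (adjusted p = 0.0803 to 0.106). Axl followed with 0.41 (adjusted p = 0.0603), and the median of the list was 0.296 against 0.008 for all genes. None of the 24 kinases, adaptors and regulators passed, and Ptpn14 had the highest value of these, 0.37 (adjusted p = 0.0699). All 23 tested fibroblast markers stood higher with OSM, by 0.24 to 0.63 on the log2 scale with a median of 0.40, and 5 of them passed the test. The values of Ankrd1, Amotl2, Ctgf and Cyr61 lie within that range, and the part of fibroblasts in them was not tested.

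**Figure D4:**
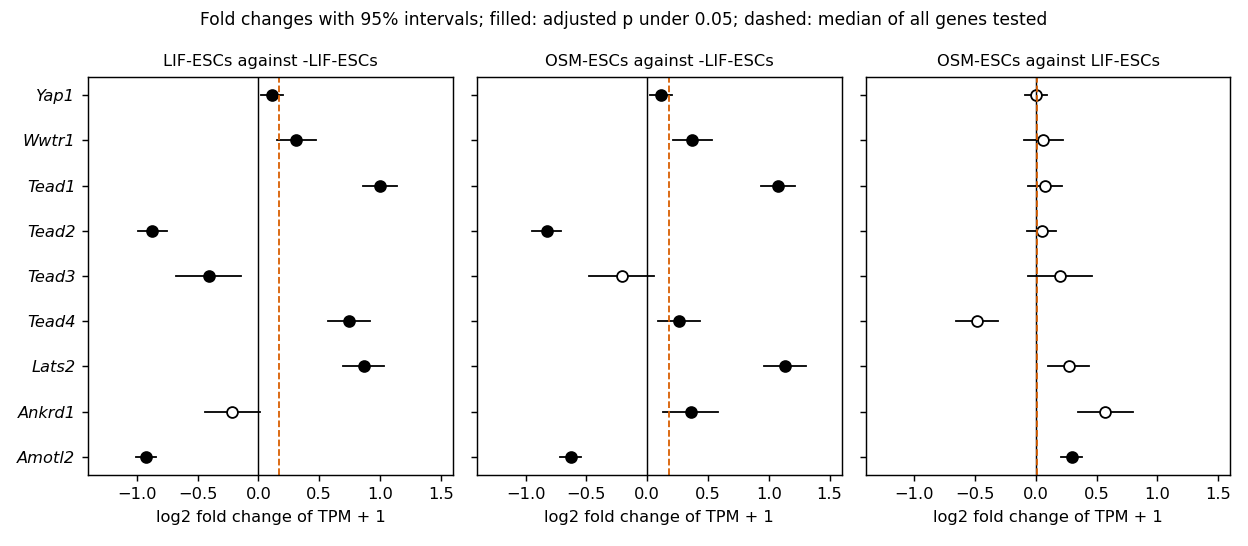
Log2 fold changes of TPM + 1 for the 9 members in the 3 comparisons, with 95% intervals as lines, filled points where the adjusted p was under 0.05, and a dashed line at the median of all genes tested. In the panel of OSM-ESCs against LIF-ESCs, Amotl2 at 0.29 is the filled point, Ankrd1 at 0.57 lies farthest to the right and Tead4 at -0.48 farthest to the left.

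Levels of the members per length spanned a wide range, from Tead3 at the 35.9 percentile of genes tested to Amotl2 at the 91.1 percentile of mean TPM. In -LIF-ESCs the order by mean TPM was Amotl2, Tead2, Yap1, Wwtr1, Tead1, Ankrd1, Tead4, Tead3 and Lats2, and no neighbours overlapped. In LIF-ESCs it was Amotl2, Yap1, Tead1, Wwtr1, Tead2, Tead4, Ankrd1, Lats2 and Tead3, with Tead4 and Ankrd1 overlapping. In OSM-ESCs it was Amotl2, Tead1, Yap1, Wwtr1, Tead2, Ankrd1, Lats2, Tead4 and Tead3, where Tead1 overlapped Yap1 and Wwtr1 overlapped Tead2. Tead1 therefore stood below Wwtr1 without cytokine, between Wwtr1 and Yap1 with LIF and at the level of Yap1 with OSM, and Lats2 moved from last to above Tead3.

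Likeness of patterns was measured as the root mean square difference of log2(TPM + 1) over the 6 libraries, each gene centred on its mean. The closest pairs of members were Tead1 with Lats2 (0.103), Tead2 with Amotl2 (0.108) and Yap1 with Wwtr1 (0.120). The most distant pair was Tead1 with Tead2 (0.890). Among all 18556 genes, the patterns most like that of Yap1 included those of Midn (0.0139) and Zdhhc18 (0.0170), both nearly flat. For Ankrd1 they were Gm16229 (0.0693), Prnp (0.0706) and Tnfrsf12a (0.0709), each lowest with LIF and highest with OSM.

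By position in GENCODE M21 (GRCm38), Yap1 and Amotl2 both lie on chromosome 9, at 7931999 to 8004596 and 102716672 to 102733418, and Tead2 and Tead1 both lie on chromosome 7, at 45215753 to 45233644 and 112679318 to 112906807. Wwtr1 lies on chromosome 3 at 57455649 to 57575910, Tead3 on chromosome 17 at 28331671 to 28350817 and Tead4 on chromosome 6 at 128224288 to 128300823. Lats2 lies on chromosome 14 at 57689662 to 57758388 and Ankrd1 on chromosome 19 at 36111961 to 36120099.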

How the data were processed

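The data are RNA-seq of mESCs at P10, with 6 libraries in 3 groups of 2. The authors deposited 1 table of TPM values for 28584 symbols. The submitters' processing notes name Trimmomatic, HISAT2, featureCounts and the mm10 build, and the annotation is not given in the sources used here. DESeq2, which the study ran on its reads, was not run again here. The groups came from the labels.

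Genes below 1 TPM in more than 4 of the 6 libraries were left out, and log2(TPM + 1) of the remaining 18556 was fitted with limma 3.58.1 (R 4.3.3), using lmFit followed by eBayes with a mean trend. All 3 groups entered 1 fit (3 residual degrees of freedom, which the prior raised to 5.33), and p-values were adjusted by Benjamini-Hochberg over all genes tested. Calls used the limits of the study's methods, 0.05 for the adjusted p and 1 for the size of the log2 fold change. Python 3.11.15 with numpy 2.4.6, pandas 2.3.3 and matplotlib 3.10.9 made the tables and plots.

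Symbols were matched to exon lengths of GENCODE M21 (28407, 99.4%). Reads recovered from TPM and exon length were whole within 0.02 for 95.4% of values, and for all 6 libraries in 26957 genes (94.9%). Tead3 and Ankrd1 were not whole at the annotated length, so no reads are given for them and their values with voom rest on estimated reads. Intervals of counting error do not cover PCR duplicates. Reads of overlapping or near-identical genes could not be separated in the deposited values.

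The members and the gene lists were chosen with earlier results of these data known, the lists from general knowledge. The text names all 9 members. From each list it may name up to 4 genes with the highest and up to 4 with the lowest log2 fold change with LIF against no cytokine and with OSM against LIF, and always Ctgf, Cyr61, Lats1, Nf2 and Vgll4. Ctgf and Cyr61 are the deposited symbols of Ccn2 and Ccn1. Elf5 of the trophectoderm list was not analysed here. For Yap1 and for Ankrd1 the rule names the 3 genes of the most similar pattern, and 1 of these is not reported here. The primed epiblast and mesendoderm list and the primitive endoderm list were also summed, at 405 and 409, 179 and 181, and 188 and 193 TPM for the first, and 62.4 and 64.3, 114 and 114, and 96.4 and 98.8 TPM for the second, in -LIF-ESCs, LIF-ESCs and OSM-ESCs.

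The alternatives were rescaling by the median ratio, limma's voom on recovered reads, a pseudocount of 0.1, a filter of 5 TPM or none, eBayes with no trend, fitting 2 groups at a time, a replicate block, no limit on the fold change and each replicate left out. The fit was tested on simulated data for LIF-ESCs against -LIF-ESCs over 18556 genes, of which 200 were changed by 1.5 on the log2 scale. The fit called 94% of the changed genes with the correct sign, 2 unchanged genes were called, and a simulated comparison without change gave 0 calls. The changed genes were drawn from those above a limit on the mean level, and the noise was normal and independent. In the data 68.1% of genes passed an adjusted p of 0.05, far more than were changed here, so the simulation does not give the error rate of the data.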

Additional observations from a re-analysis of the deposited data

Results flagged for a closer look

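The responses to OSM and to LIF, each against the same -LIF-ESC libraries, differed for 1 member and 2 listed targets by the limma test of OSM-ESCs against LIF-ESCs. The difference was 0.29 on the log2 scale for Amotl2 (adjusted p = 0.0463), 0.36 for Cyr61 (adjusted p = 0.0349) and 0.42 for Ctgf (adjusted p = 0.026). None of the 3 passed an adjusted p of 0.05 without the trend, with only the 2 groups fitted, with a replicate block (adjusted p = 0.0803 to 0.148 over these) or without any 1 of the 4 cytokine libraries (adjusted p = 0.171 to 0.266). In all 3 genes both OSM-ESC libraries lay above both LIF-ESC libraries. Amotl2 and Cyr61 were lower than in -LIF-ESCs under either cytokine, and less so with OSM. Ctgf was higher than in -LIF-ESCs under either cytokine, and more so with OSM.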

How the results depend on the processing

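No member was called in LIF-ESCs against -LIF-ESCs, but 1 was with a pseudocount of 0.1, 2 after rescaling by the median ratio, 2 with voom and 8 with no limit on the fold change. Over all genes, that pseudocount called 3179 higher and 1910 lower of 18556, and voom 2681 and 2316 of 18433. In OSM-ESCs the 2 calls, Tead1 and Lats2, became 1 after rescaling, and that 1 was Tead2, which was lower (log2 -1.03). With voom 1 call was left, Lats2 (log2 1.13), and with no fold limit there were 8. Over all genes, voom called 2813 higher and 2334 lower with OSM. Rescaling also moved the members past an adjusted p of 0.05 to 3 higher and 4 lower with LIF and 3 and 3 with OSM. Of all genes, 6243 were then higher and 6291 lower at that adjusted p with LIF, and 6216 and 6256 with OSM. The split of all genes called moved from 2470 higher and 1502 lower to 1909 and 1968 with LIF, and from 2630 and 1459 to 2014 and 1961 with OSM. Yap1 turned to -0.081 (LIF) and -0.090 (OSM) on rescaling and to -0.019 and -0.017 with voom, Nf2 with OSM to -0.115 and -0.044, and Vgll3 with LIF to -0.041 on rescaling. On rescaling Ctgf with LIF fell short of the fold limit (log2 0.89). Ptpn14 with OSM (-1.02), Wtip with LIF (-1.15) and OSM (-1.01) and Vgll4 with LIF (-1.02) moved past it. Without a fold limit, the genes called rose to 12631 with LIF, 12680 with OSM and 110 between the cytokines, where 1 member was then called. The same comparison between cytokines had 15 genes called, and 6 with a pseudocount of 0.1, 51 with voom and 0 in a fit of only the 2 groups. Its 1 member past an adjusted p of 0.05 became 0 with a pseudocount of 0.1, no filter, no trend or only the 2 groups, 2 with a filter of 5 TPM and 4 with voom. At that threshold between the cytokines, the filter of 5 TPM had 149 genes higher and 38 lower of 13315, and voom had 973 and 476 of 18433. Ctgf and Cyr61 did not pass there with no trend (adjusted p = 0.0803 and 0.0996) or only the 2 groups (0.088 and 0.106). Log2 differences near 0 changed sign there, for Yap1 to -0.0091 on rescaling and, with 1 replicate left out, over the ranges -0.0093 to 0.0137 for Yap1, -0.0145 to 0.137 for Wwtr1, -0.0629 to 0.0595 for Gadd45a, -0.131 to 0.0135 for Taok3 and -0.0340 to 0.107 for Lats1.

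With each replicate left out in turn, a lone library being assumed to vary like the other groups, members called ranged from 0 to 1 with LIF (1 without LIF-ESC replicate 2), from 2 to 2 with OSM and from 0 to 0 between cytokines. Members past an adjusted p of 0.05 ranged from 6 to 7, from 5 to 7 and from 0 to 0, with the 5 reached without either OSM-ESC replicate. All genes called ranged from 3944 to 4000, from 3957 to 4104 and from 0 to 1. These fits have 2 residual degrees of freedom in place of 3. Of the values of single members against -LIF-ESCs under the other alternatives, 65 of 72 with LIF and 62 of 72 with OSM kept their direction and their side of the threshold. The cause of these changes was not tested.

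The replicate numbers did not pair the libraries. Deviations of libraries with the same number from their group means correlated at -0.0433, -0.0234 and 0.0265 for the 3 pairs of groups. A fit with the replicate number as a block called 0 genes between the cytokines and left 0 members past an adjusted p of 0.05 there, with adjusted p = 0.148 for Amotl2, 0.129 for Ctgf and 0.139 for Cyr61. It also lost Yap1 with LIF (adjusted p = 0.0706) and OSM (adjusted p = 0.0667).

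Depth left a counting error of up to 5.97% for Tead4, which had the fewest reads of the 7 members with whole reads. With 2 libraries per group, differences of the size of that in Tead3 between cytokines were not resolved.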
